A study of Mus musculus with 18 samples.

Results

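Scn3a, Msx3, Rasgrp1, Tbc1d16, Snx29 and Gprc5c are 6 mouse genes that are seldom listed among the markers of macrophages exposed to interleukin-4 (IL-4). They were picked from the 23052 genes of the count tables for strong expression in the IL-4 libraries, so their levels in that group are given as a description and were not tested. The libraries came from bone marrow-derived macrophages of C57BL6/J wild type mice, grown for 7 days in medium with 20% L929 cell supernatant. In a stimulation set of 6 libraries, cells had received IL-4 for 6 h, lipopolysaccharide (LPS) for 6 h, or no stimulus (2 libraries each). In a set of 12 libraries, endotoxin-tolerant macrophages, cells that an earlier endotoxin exposure has made less responsive, were kept with α-ketoglutarate (AKG) but without glutamine, without glutamine, or with glutamine (4 libraries each). Every group is wild type, and the sources used here give no dose of IL-4, LPS or AKG. The labels do not say whether replicates were separate mice or cultures, so p-values measure only the spread between these samples.

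IL-4 binds a receptor whose Janus kinases phosphorylate the transcription factor STAT6, and STAT6 dimers then switch on genes such as Arg1, Retnla and Cdh1 in macrophages. LPS acts through Toll-like receptor signalling and switches on cytokine and interferon-response genes. Of the 6 genes, Scn3a encodes the pore-forming subunit of a voltage-gated sodium channel of the nervous system, and Msx3 a homeobox transcription factor of the dorsal neural tube. Rasgrp1 encodes an exchange factor that activates Ras in response to diacylglycerol and is best known from T cells. Tbc1d16 encodes a GTPase-activating protein for Rab4A, a Rab of recycling endosomes, Snx29 a sorting nexin, a family that binds phosphoinositides on endosomes, and Gprc5c an orphan receptor of the class C G protein-coupled receptors.

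Library totals ran from 34227368 to 39760356 counts in the stimulation set and from 28302158 to 37834680 in the tolerant set. Levels are given as CPM, counts per 1000000 of the library size scaled by TMM, and each set was scaled on its own, so a level in one set is only roughly comparable with a level in the other. All 11 macrophage identity genes checked, among them Adgre1, Csf1r and Lyz2, were above 1 CPM in every group, with a summed level of 27602 to 47840 CPM. The sum of 5 dendritic cell markers was 6.37 to 7.06 CPM with IL-4. With LPS it was 4.75 to 5.29 CPM, and untreated 0.936 to 1.01 CPM. Of the 3 tested, Zbtb46 and Flt3 rose with IL-4 against untreated, by 4.07 (SE 0.23, adjusted p = 0.00040) and 3.19 (SE 0.30, adjusted p = 0.0018). Xcr1 did not (-0.46, SE 0.26, adjusted p = 0.47). It averaged 0.240 CPM with IL-4, 0.332 CPM untreated and 4.57 CPM with LPS, most of the LPS sum. The sum of 7 epithelial genes was 89.9 to 90.6 CPM with IL-4, nearly all of it Cdh1, itself a known IL-4 target, and 1.92 to 1.98 CPM with LPS and 0.312 to 0.493 CPM untreated. The sum of 9 stromal fibroblast markers was 72.6 to 79.2 CPM with IL-4. It was 94.5 to 111 CPM with LPS and 99.7 to 107 CPM untreated. Neutrophil and erythroid sums were at most 3.04 CPM in the stimulation set. The part of other cell types in the IL-4 levels below was not tested. In these bulk libraries fewer cells of a type and less RNA per cell cannot be told apart.

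The label of genes switched on by IL-4 fitted some of the 6 genes better than others. Scn3a and Msx3 were at or near 0 counts without IL-4. Rasgrp1 was near 0 in untreated cells and was high with IL-4 and also with LPS. Tbc1d16, Snx29 and Gprc5c were already expressed in untreated cells, were higher with IL-4 and were far lower with LPS. In all 6 genes both IL-4 libraries lay above both LPS libraries and above both untreated libraries. Among the 12506 genes tested in the stimulation set, 44.8% had the IL-4 libraries above the LPS libraries and 26.5% had them above the untreated libraries. Since the genes were chosen on these contrasts, nothing is read from that count.

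**Figure D1:**
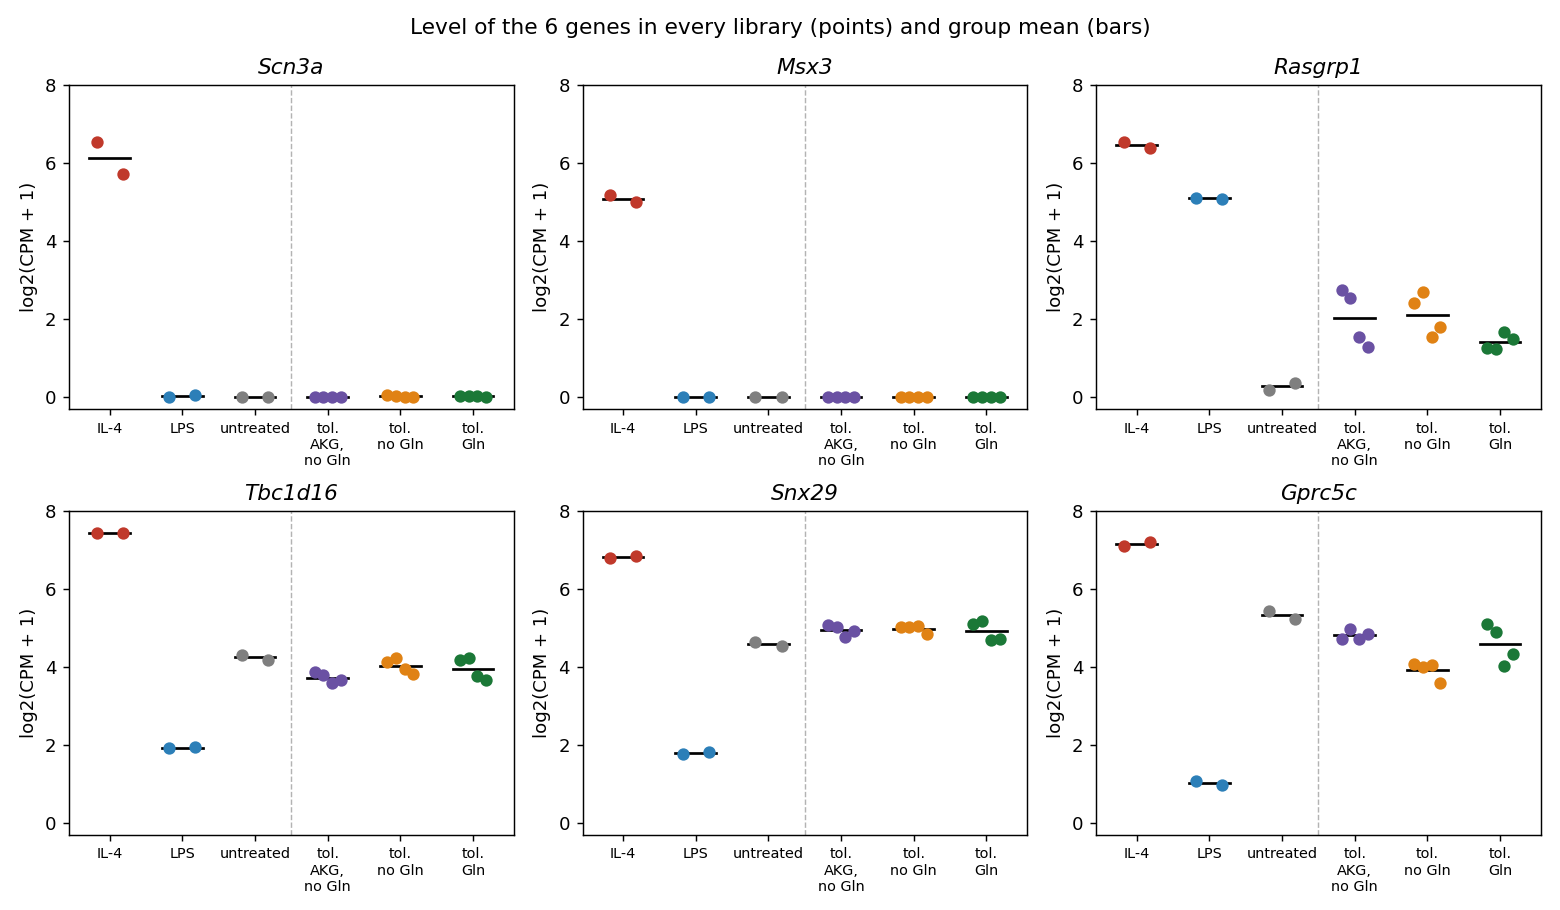
Level of each of the 6 genes as log2(CPM + 1) on the vertical axis, in each of 18 libraries (points) with the group mean (bar), for the stimulation groups left of the dashed line and the tolerant groups (tol.; AKG, α-ketoglutarate; Gln, glutamine) right of it. Scn3a and Msx3 are above 0.1 CPM only in the IL-4 libraries, Rasgrp1 is also high with LPS at 32.8 and 33.5 CPM, and Tbc1d16, Snx29 and Gprc5c have an intermediate level in all groups other than IL-4 and LPS.

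The stretches just before the annotated starts are shown for Msx3, Rasgrp1 and Snx29, one gene from each of the 3 kinds of pattern above. They come from the RefSeq promoter table of GRCm38.p6, which matched 3 of the 6 genes (the others are Scn3a, Tbc1d16 and Gprc5c), and they are cut to the bases before any annotated transcript. Each is given 5′ to 3′ on the strand of the gene, with CpG dinucleotides in capitals.
Msx3, chr7:140049090-140049338, minus strand: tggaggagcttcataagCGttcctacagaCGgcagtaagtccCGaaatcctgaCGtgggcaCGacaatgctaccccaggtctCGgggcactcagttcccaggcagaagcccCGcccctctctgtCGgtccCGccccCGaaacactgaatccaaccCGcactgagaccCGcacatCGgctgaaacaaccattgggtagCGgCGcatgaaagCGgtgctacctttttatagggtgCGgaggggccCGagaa
Rasgrp1, chr2:117343002-117343127, minus strand: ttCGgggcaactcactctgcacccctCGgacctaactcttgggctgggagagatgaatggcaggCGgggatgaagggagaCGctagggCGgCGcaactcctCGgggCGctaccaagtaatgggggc
Snx29, chr16:11322654-11322903, plus strand: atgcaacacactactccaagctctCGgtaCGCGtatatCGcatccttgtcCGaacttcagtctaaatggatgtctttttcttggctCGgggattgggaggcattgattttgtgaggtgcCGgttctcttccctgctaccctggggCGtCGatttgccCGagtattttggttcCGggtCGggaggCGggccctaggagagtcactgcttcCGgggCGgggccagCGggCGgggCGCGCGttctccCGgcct
The 250 bases before the RefSeq start held 18 CpG dinucleotides at Msx3, 21 at Rasgrp1 and 21 at the upstream start of Snx29, against a median of 6 over 32851 windows of the same length (quartiles 2 and 16). Their GC content was 60.0%, 62.4% and 59.6%, against a median of 52.4%. A second Snx29 start in the table had 1 CpG and 51.6% GC in its window. The letters TTCNNNNGAA, the spacing that STAT6 prefers, were searched on both strands (the motif reads the same on each) and occurred in none of these 4 windows, against 5.85% of all windows. The related TTCNNNGAA, the spacing of other STAT proteins, occurred at Rasgrp1 as TTCGAAGAA, from 120 to 112 bases before the RefSeq start, and in 7.02% of all windows. That match lies in the annotated transcript, outside the printed Rasgrp1 stretch, which holds 8 of the 21 CpG dinucleotides of its window. A match is a match of letters, and binding was not measured.

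Scn3a (ENSMUSG00000057182.14, chr2:65457118-65567627, minus strand, mm10) had 3574 and 2322 counts in the IL-4 libraries, against 0 and 1 count in the LPS libraries and 0 and 0 counts in the untreated libraries. This is 92.7 and 52.1 CPM with IL-4, against 0 and 0.0349 CPM with LPS and 0 CPM in both untreated libraries. Taking 3 counts over the group as the limit that a count of 0 allows, Scn3a was at least 1993-fold higher with IL-4 than in untreated cells. Against the single LPS count the ratio was 4068, with a 95% counting interval of 730 to 160720. The IL-4 replicates differed by 1.78-fold, and of 5004 genes with at least 33 CPM in that group 3.62% differed by more.

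Of the 13 other sodium channel genes 2 had enough counts to be tested, among them Scn3b, an auxiliary subunit, which was not called with IL-4. Scn3b averaged 1.63 ± 0.15 CPM with IL-4 and 2.45 ± 0.35 CPM untreated (SD, n = 2 each; log2 fold change -0.59, SE 0.20, adjusted p = 0.095 by edgeR). The channel-forming genes Scn1a, Scn2a1, Scn8a and Scn11a averaged under 0.05 CPM with IL-4, and Scn4a, Scn7a, Scn9a and Scn10a had 0 counts there. The summed level of 8 neuronal markers was 1.79 to 2.57 CPM with IL-4, 1.29 to 1.68 CPM with LPS and 1.78 to 1.92 CPM untreated, with Tubb3 the highest of them in each group and Nefl at 0. Of the 2 tested, Map2 was called higher with IL-4 (0.810 ± 0.543 CPM with IL-4 and 0.130 ± 0.015 CPM untreated; 2.58, SE 0.64, adjusted p = 0.040; against LPS 2.49, adjusted p = 0.026) and Tubb3 was not called. The part of neuronal cells in the Scn3a level was not tested.

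Msx3 (ENSMUSG00000025469.10, chr7:140046157-140049089, minus strand) had 1348 and 1384 counts in the IL-4 libraries and 0 counts in each of the 16 other libraries. The IL-4 levels were 35.0 and 31.0 CPM. With the same limit, Msx3 was at least 628-fold higher than with LPS and at least 924-fold higher than in untreated cells. Its relatives were close to 0 in the stimulation set, and none of the 8 other Msx and Dlx homeobox genes had enough counts to be tested. Dlx3 had the highest of their IL-4 levels, 0.275 ± 0.198 CPM, against 0 CPM with LPS and 0.0117 ± 0.0166 CPM untreated (SD, n = 2 each).

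Rasgrp1 (ENSMUSG00000027347.18, chr2:117279993-117343001, minus strand) had 92.2 and 83.3 CPM with IL-4, 33.5 and 32.8 CPM with LPS, and 0.144 and 0.281 CPM (6 and 12 counts) in untreated cells. The 3 groups did not overlap. On the log2 scale the LPS level was much nearer to the IL-4 level than to the untreated level. The mean with IL-4 was 2.64-fold that with LPS (fitted log2 fold change 1.40, SE 0.17) and 412-fold that of untreated cells (8.66, SE 0.25). The mean with LPS was 156-fold that of untreated cells (7.26, SE 0.25). Expression with IL-4 only is therefore not an accurate label for Rasgrp1. In this one of the 6 genes both LPS libraries lay above both untreated libraries, as did 32.8% of genes tested.

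Rasgrp1 is a T cell and mast cell gene in other settings, and markers of those cells were measured beside it. The summed level of 8 T and B lymphocyte genes was 0.285 to 0.605 CPM with IL-4, 3.46 to 5.67 CPM with LPS and 0.528 to 0.821 CPM untreated. Cd3e, Cd3d and Ms4a1 were at 0 in both IL-4 libraries, and the LPS sum was mostly Lck at 3.21 CPM. The sum of 8 mast cell and basophil genes was 2.13 to 2.23 CPM with IL-4, 22.6 to 38.0 CPM with LPS and 0.936 to 1.34 CPM untreated. Hdc, the histidine decarboxylase gene, made up 29.6 CPM of the LPS level, and Tpsb2 and Mcpt4 were at 0 in all 3 groups. The part of such cells in the Rasgrp1 level with LPS was not tested.

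Of 16 other genes that activate or switch off Ras and had enough counts, 3 rose with IL-4 and 1 fell. Over all genes tested 9.64% rose and 10.5% fell. The median log2 fold change of the 16 was 0.03, against -0.04 over all genes tested. Rasal3, a RasGAP, rose by 1.54 (SE 0.13, adjusted p = 0.0011), to 79.4 ± 2.7 CPM against 27.4 ± 3.5 CPM untreated. Dab2ip, another RasGAP, rose by 1.52 (SE 0.24, adjusted p = 0.0090) and Rasgrp4, a mast cell relative of Rasgrp1, by 0.92 (SE 0.13, adjusted p = 0.0068). Without replicate 2 of the IL-4 group Dab2ip and Rasgrp4 were not called (adjusted p = 0.072 and 0.054), which left 1 gene higher. Rasa4 fell by 1.19 (SE 0.13, adjusted p = 0.0025), to 90.3 ± 6.4 CPM with IL-4 against 206 ± 20 CPM untreated.

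Tbc1d16 (ENSMUSG00000039976.4, chr11:119143045-119228499, minus strand) had 170.2 and 171.0 CPM with IL-4, 2.78 and 2.83 CPM with LPS, and 18.9 and 17.1 CPM in untreated cells. The mean with IL-4 was 60.8-fold that with LPS (fitted log2 fold change 5.92, SE 0.12) and 9.49-fold that of untreated cells (3.25, SE 0.11). The mean with LPS was 6.41-fold lower than in untreated cells (-2.68, SE 0.11), so the untreated level lay between the other 2. The gene shares 454 exon bases, 6.38% of its exons, with the antisense RNA Gm26888, and the sources used here do not say whether the counting used strand.

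Of 35 other TBC domain genes tested, 4 rose with IL-4 and 2 fell, against 9.64% higher and 10.5% lower over all genes tested. Their median log2 fold change was -0.12, against -0.04 over all genes tested. Tbc1d4, a Rab GAP of glucose transporter traffic, rose by 2.76 (SE 0.14, adjusted p = 0.00031), with 119 ± 4.8 CPM with IL-4, 1.57 ± 0.25 CPM with LPS and 17.5 ± 1.4 CPM untreated. Its 3 levels stood in the same order as those of Tbc1d16, and so did those of Tbc1d8, Sgsm3 and some other TBC genes. Tbc1d8 rose by 1.05 (SE 0.20, adjusted p = 0.019) and Sgsm3 by 0.72 (SE 0.12, adjusted p = 0.011), while Tbc1d2 fell by 0.68 (SE 0.14, adjusted p = 0.021). With either IL-4 library left out, the calls of Tbc1d8, Sgsm3 and Tbc1d2 were lost, as were those of TBC genes not named here. The log2 fold changes of these 3 were then 1.14, 0.80 and -0.61 without replicate 1. Without replicate 2 they were 0.95, 0.62 and -0.76. Tbc1d2 was also lost without either LPS library or replicate 1 of the untreated group (adjusted p from 0.0501 to 0.068), from the 2 groups alone (adjusted p = 0.072) and under the replicate block (adjusted p = 0.052).

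Snx29 (ENSMUSG00000071669.14, chr16:11322908-11755472, plus strand) had 109.7 and 113.5 CPM with IL-4, 2.40 and 2.55 CPM with LPS, and 23.8 and 22.3 CPM in untreated cells. The mean with IL-4 was 45.1-fold that with LPS (fitted log2 fold change 5.49, SE 0.12) and 4.83-fold that of untreated cells (2.27, SE 0.10). With LPS the mean was 9.32-fold lower than in untreated cells (-3.22, SE 0.11). The order of the groups was thus that of Tbc1d16, with no overlap.

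Sorting nexins as a family moved in both directions with IL-4. Of 28 others tested, 8 rose and 7 fell, with a median log2 fold change of 0.04, against 9.64% higher and 10.5% lower and a median of -0.04 over all genes tested. Snx2 rose by 1.75 (SE 0.14, adjusted p = 0.0011) and Snx6 by 1.43 (SE 0.11, adjusted p = 0.00091), both subunits of the sorting nexin dimers that work with retromer. Snx9, an endocytic adaptor, rose by 0.98 (SE 0.09, adjusted p = 0.0016) and Snx8 by 0.87 (SE 0.11, adjusted p = 0.0044). With one IL-4 library left out these counts became 4 higher and 1 lower (without replicate 1) or 4 higher and 0 lower (without replicate 2, where Snx8 had adjusted p = 0.0501), and 4 were lower without replicate 1 of the untreated group. Snx2 averaged 612 ± 53 CPM with IL-4, 406 ± 2.1 CPM with LPS and 181 ± 30 CPM untreated, so that both stimuli gave more than the untreated level, unlike Snx29.

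Gprc5c (ENSMUSG00000051043.16, chr11:114851152-114872617, plus strand) had 136.3 and 144.8 CPM with IL-4, 1.11 and 0.978 CPM with LPS (32 and 28 counts), and 41.8 and 36.6 CPM in untreated cells. It had the highest untreated level of the 6 genes and the smallest ratio of IL-4 to untreated, 3.59 (fitted log2 fold change 1.84, SE 0.12). Its ratio of IL-4 to LPS was 134 (7.07, SE 0.16), and with LPS its mean was 37.5-fold lower than in untreated cells (-5.22, SE 0.15). In 3 of the 6 genes, Tbc1d16, Snx29 and Gprc5c, both LPS libraries lay below both untreated libraries, as did 41.7% of genes tested. Of the 7 other class C orphan receptor genes 3 had enough counts and none was called for IL-4 against untreated (the smallest adjusted p was 0.27, Gprc5a). Gprc5b, the nearest in level, averaged 3.55 ± 0.47 CPM with IL-4, 2.16 ± 0.54 CPM with LPS and 4.31 ± 0.19 CPM untreated (SD, n = 2 each), and it was called against LPS (0.72, adjusted p = 0.034) and for LPS against untreated (-0.99, adjusted p = 0.011).

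**Figure D2:**
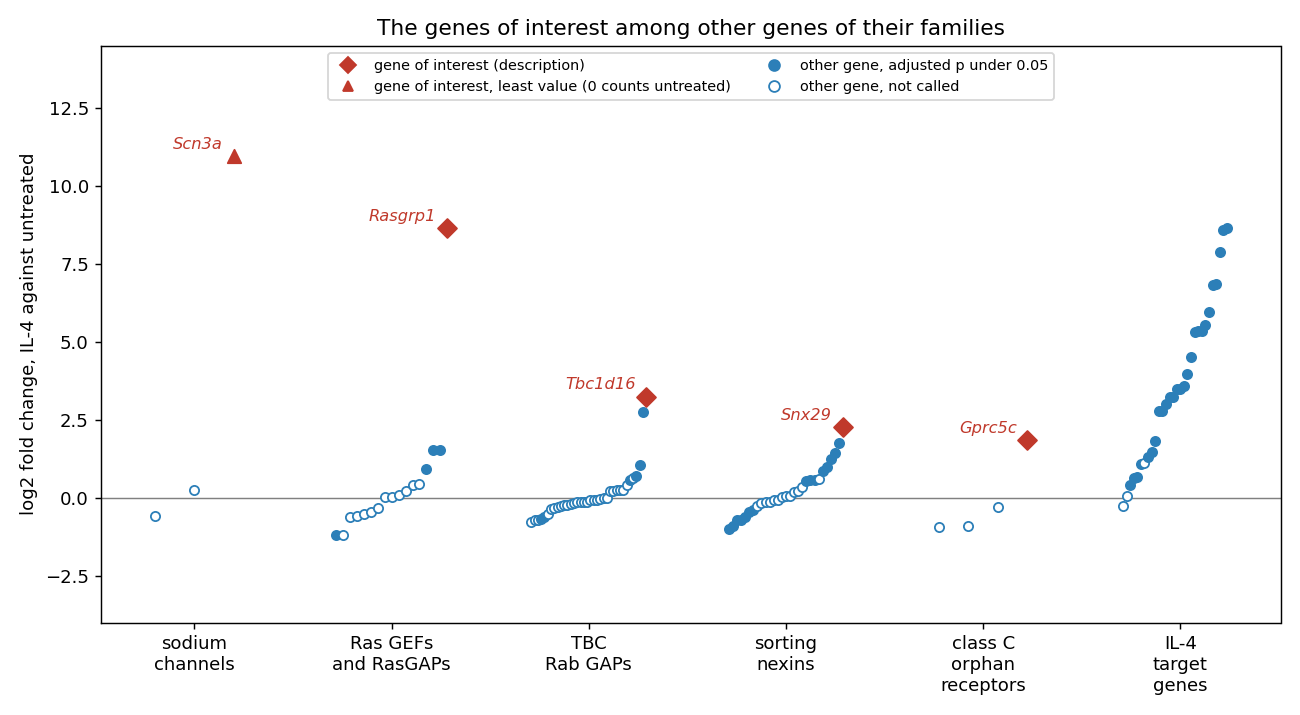
Log2 fold change of IL-4 against untreated (vertical axis) for the tested genes of 6 lists (horizontal axis, sorted within each list). Red symbols are Rasgrp1, Tbc1d16, Snx29, Gprc5c and the least value for Scn3a (triangle, 10.96), filled blue points are other genes with an adjusted p under 0.05, and 3 IL-4 target genes with 0 counts untreated (Retnla, Chil4 and Rnase2a) are not drawn. Each red symbol lies above every other gene of its family, which their choice fixed in part.

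Per kilobase of annotated exon, Gprc5c had the highest level with IL-4, at 26.8 ± 1.15 CPM per kilobase (SD, n = 2). Tbc1d16 had 24.0 ± 0.07, Snx29 17.3 ± 0.42, Rasgrp1 15.7 ± 1.12, Msx3 14.0 ± 1.19 and Scn3a 5.81 ± 2.31 CPM per kilobase. The ranges of mean ± 1 SD overlapped for Rasgrp1 and Msx3, lay close to each other for Snx29 and Rasgrp1, and were apart for the other neighbours in this order. The median over 12146 genes was 4.67 CPM per kilobase in that group, and Gprc5c exceeded 87.1% of the genes and Scn3a 55.1%. In untreated cells the order was Gprc5c at 7.47 ± 0.70, Snx29 at 3.59 ± 0.16, Tbc1d16 at 2.53 ± 0.18 and Rasgrp1 at 0.0380 ± 0.0174 CPM per kilobase, with Scn3a and Msx3 at 0.

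Known IL-4 target genes moved in the same libraries. Of 33 tested, 30 rose with IL-4 and 0 fell (26 to 30 rose with 1 library left out), with a median log2 fold change of 3.51 (the same with 3 genes at 0 counts untreated set to their limit). Over all tested genes 9.64% rose and 10.5% fell, 20.1% together. Arg1, arginase 1, rose by 8.67 to 1117 CPM against 2.73 CPM untreated, and Pdcd1lg2, the PD-L2 gene, by 8.59 (adjusted p = 7.1e-05 for both). Cdh1, E-cadherin, rose by 7.88 and Slc7a2, an arginine transporter, by 5.37. With LPS against untreated 14 of the 33 also rose and 10 fell, against 22.8% and 29.4% of all genes. Slc7a2 averaged 802 CPM with LPS and 762 CPM with IL-4. Of 17 genes of the IL-4 receptor and STAT6 pathway 5 rose and 2 fell (3 and 0 without either IL-4 library, and 1 fell without either LPS library). The median log2 fold change of these 17 was -0.09, against -0.04 over all genes tested. Il4ra, Socs1 and Cish are in this list and also among the IL-4 target genes above. Socs1 and Cish, feedback inhibitors of Janus kinase signalling, rose by 6.82 (SE 0.41, adjusted p = 0.00050) and 6.87 (SE 0.59, adjusted p = 0.0013), and Jak2 by 2.12 (SE 0.22, adjusted p = 0.0025). Ptpn6, a phosphatase, fell by 0.62 (SE 0.09, adjusted p = 0.0086; 0.10 and 0.077 without IL-4 replicates 1 and 2).

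The rule that picked the 6 genes has no threshold. The smallest fitted difference among the 6 genes was that of Rasgrp1 from LPS, 1.40 log2 units. Genes higher with IL-4 by at least that much against both LPS and untreated numbered 340, and 111 of them had at least 33 CPM with IL-4, the level of Msx3. The 6 genes are thus some of many with such a pattern.

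LPS response genes were measured for contrast. All 16 rose with LPS, as did 22.8% of all genes, among them Acod1 by 8.48, Ccl5 by 7.44, Ifit1 by 4.66 and Tnf by 4.58 (adjusted p = 3.6e-05 for Acod1 and 3.9e-05 for the others). With IL-4, 7 of the 16 fell and 1 rose (2 and 3 fell without IL-4 replicates 1 and 2, 4 without untreated replicate 1, and 0 rose in each of these). Over all genes 10.5% fell and 9.64% rose with IL-4. Ifit1 fell by 2.11 (SE 0.14, adjusted p = 0.00061).

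Likeness of pattern was measured over all 18 libraries as the root mean square difference of centred log2 CPM, among the genes tested in the stimulation set. The nearest gene to Scn3a was Msx3, at 0.40 log2 units, then Retnla at 0.43 and Il31ra at 1.02, against a median of 3.21 over all genes. Retnla, an IL-4 effector gene, had 83.2 and 97.4 CPM with IL-4 and at most 1 count in any other library of the stimulation set. For Msx3 the nearest were Scn3a, Retnla (0.49) and Il31ra (0.76). Scn3a and Msx3 were both chosen for expression with IL-4 and were at or near 0 counts elsewhere. Their likeness to each other was thus fixed in part by the choice, and nothing is read from it. For Rasgrp1 they were Socs1 (0.87), Gda (1.24) and Scimp (1.36), genes that are also high with LPS. Socs1 averaged 75.7 ± 0.11 CPM with IL-4, 31.4 ± 9.7 CPM with LPS and 0.667 ± 0.35 CPM untreated.

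For the other genes the nearest patterns had a similar order of groups. A search for likeness fixes such an order in advance, here and for the genes above. Tbc1d16 was nearest to AI464131 (0.35), Fam198b (0.39) and Matk (0.42), and Snx29 to Tmem144 (0.25), Lrmp (0.34) and Fam198b (0.38). Gprc5c was nearest to Lpin1, a phosphatidate phosphatase gene (0.58), Tmem144 (0.58) and Cables1 (0.58). Fam198b averaged 172 ± 3.6 CPM with IL-4, 3.85 ± 0.23 CPM with LPS and 26.1 ± 2.0 CPM untreated. Lpin1 averaged 74.8 ± 6.1 CPM with IL-4, 0.889 ± 0.027 CPM with LPS and 27.7 ± 1.1 CPM untreated (SD, n = 2 each).

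Genes beside the 6 on the chromosome were compared next, taking the 2 nearest protein-coding genes on each side. Of 24 such genes 17 had enough counts, and with IL-4 7 rose and 1 fell, with a median log2 fold change of 0.23. Over all genes 9.64% rose and 10.5% fell, with a median of -0.04. Cobll1, whose start lies 328 kb from that of Scn3a, rose by 4.53 (SE 0.24, adjusted p = 0.00036), to 9.40 ± 1.53 CPM with IL-4 against 0.402 ± 0.094 CPM untreated. Scn3a's other tested neighbour, Galnt3, had -0.44 (SE 0.33, adjusted p = 0.43), and Slc38a11 and Csrnp3 had 0 to 2 counts in each stimulation library. Beside Gprc5c, Cd300lb, an immune receptor gene, rose by 1.30 (SE 0.10, adjusted p = 0.00098) and Btbd17, at 1.25 CPM with IL-4, by 2.88 (SE 0.36, adjusted p = 0.0074).

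The rises near the other genes were smaller. Tubgcp2 and Zfp511 beside Msx3 rose by 0.98 (SE 0.11, adjusted p = 0.0033) and 0.62 (SE 0.13, adjusted p = 0.027), Fam98b beside Rasgrp1 by 0.68 (SE 0.10, adjusted p = 0.0070) and Gspt1 beside Snx29 by 0.75 (SE 0.10, adjusted p = 0.0056). Thbs1, 769 kb from Rasgrp1, fell by 2.11 (SE 0.16, adjusted p = 0.00091). None of the 4 neighbours of Tbc1d16 was called, including Ccdc40, whose start lies 0.073 kb away on the other strand (0.36, SE 0.21, adjusted p = 0.30). Without either of the IL-4 libraries Btbd17, Zfp511, Fam98b and Gspt1 were not called (adjusted p from 0.0501 to 0.18). Zfp511 was also lost without replicate 2 of the untreated group (adjusted p = 0.067), from the 2 groups alone (adjusted p = 0.051) and with the replicate block (adjusted p = 0.060).

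**Figure D3:**
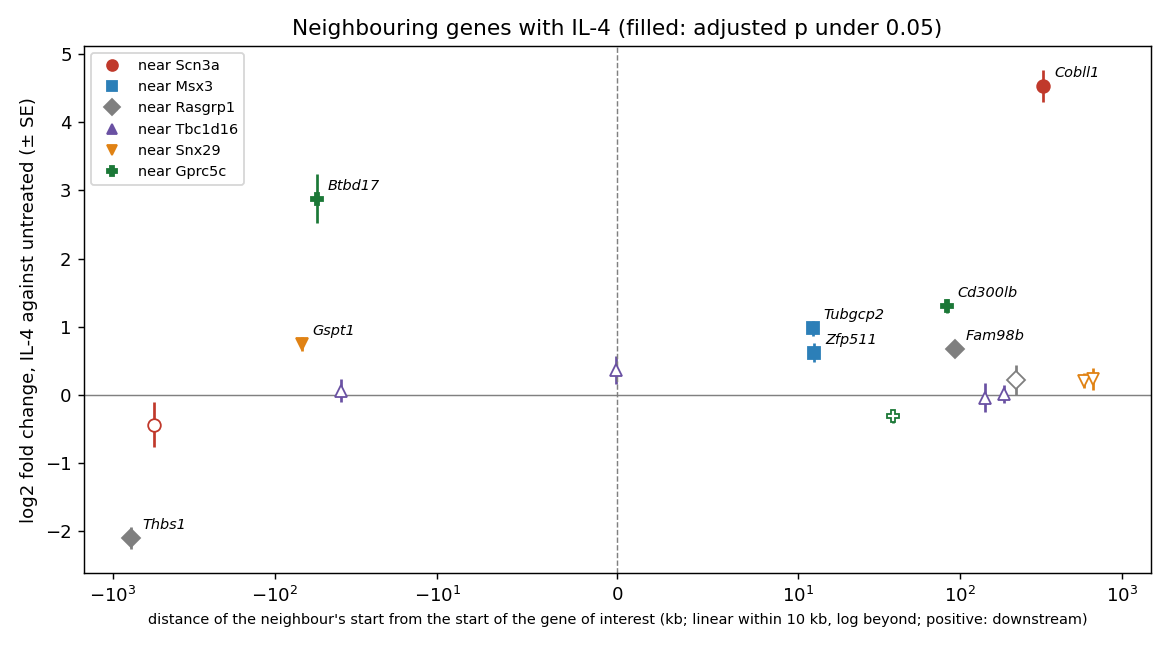
Log2 fold change of IL-4 against untreated (vertical axis, bars ± SE) of the 17 tested neighbours against the distance of their start from the start of the named gene in kb (horizontal axis, linear within 10 kb and logarithmic beyond, positive downstream). Filled symbols have an adjusted p under 0.05. Cobll1 stands highest at 4.53, and Ccdc40, the nearest to the start of its neighbour, lies at 0.36.

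In endotoxin-tolerant macrophages Scn3a and Msx3 were at or near 0 counts. Scn3a had 5 counts in 12 libraries, none of them in the AKG group, and Msx3 had 0, so neither could be tested there. For Msx3 the limit that a count of 0 allows is 0.0214 CPM over the 4 AKG libraries, 0.0244 CPM without glutamine and 0.0209 CPM with glutamine. The other 4 genes were measurable. Their contrasts between tolerant groups were not used in choosing the genes, so they were tested.

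Whether the supply of glutamine, or of AKG in its place, alters these genes in tolerant cells was asked with edgeR's quasi-likelihood test over 12492 genes. None of the 4 genes was called in any of the 3 comparisons in this fit, which leaves out the replicate numbers. With a block on the replicate number, Gprc5c was called without glutamine against with glutamine, as were 21.8% of all genes. For AKG against no AKG that block called Gprc5c and Tbc1d16, and 15.6% of all genes. For AKG without glutamine against with glutamine it called none of the 4, and 7.08% of all genes. At an unadjusted p under 0.05 there were 2 without glutamine against with glutamine (Rasgrp1 and Gprc5c), 1 for AKG against no AKG (Gprc5c) and 1 for AKG without glutamine against with glutamine (Rasgrp1). Over all 12492 genes, 2245, 1632 and 919 had an unadjusted p under 0.05 in these comparisons, and 4.78%, 1.54% and 0% were called. In the last comparison, with 0 calls, DESeq2 called 232 genes, limma-voom 0, and the block on the replicate number 884. Replicates 1 and 2 of every tolerant group differed from replicates 3 and 4, along a first principal component with 59.2% of the variance. The labels do not say what separates them, and values within each pair are given where the 2 pairs differ.

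Of the 4 genes, Gprc5c had the lowest adjusted p between tolerant groups. It had 25.2, 30.5, 25.1 and 27.9 CPM with AKG and no glutamine, 15.9, 14.9, 15.4 and 11.0 CPM without glutamine, and 33.1, 28.5, 15.2 and 19.1 CPM with glutamine. The AKG libraries did not overlap those without glutamine, as was so for 9.1% of genes tested, while the libraries with glutamine overlapped both. AKG against no AKG gave 0.92 on the log2 scale (SE 0.22, adjusted p = 0.065), and 0.94 in the fit blocked on replicate number (SE 0.19, adjusted p = 0.0098). The value was 0.86 (adjusted p = 0.0012) within replicates 1 and 2 and 1.01 (adjusted p = 0.045) within replicates 3 and 4. DESeq2 called it as well (adjusted p = 0.0029), and limma-voom did not (adjusted p = 0.075). Of all genes 15.6% were called under the block, 5.46% by DESeq2, 18.8% with the replicate pair as a factor, and 23.5% and 5.09% within the pairs 1 and 2 and 3 and 4.

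Without glutamine against with glutamine, Gprc5c had a log2 difference of -0.74 (SE 0.22, adjusted p = 0.084). With the replicate block, where 21.8% of all genes were called, it was -0.71 (SE 0.19, adjusted p = 0.024), and DESeq2 gave adjusted p = 0.019 and called 10.1% of genes. Within replicates 1 and 2 it was -1.0 (adjusted p = 0.00042) and within replicates 3 and 4 -0.35 (adjusted p = 0.32), where 28.8% and 13.1% of all genes were called, and 25% were with the pair as a factor. With AKG in place of glutamine the difference from the group with glutamine was 0.18 (SE 0.22, adjusted p = 1.0), and -0.14 (adjusted p = 0.46) and 0.66 (adjusted p = 0.14) within the pairs. Stromal fibroblast markers moved in the same groups, with a summed level of 80.1 to 295 CPM with AKG, 39.2 to 164 CPM without glutamine and 307 to 1639 CPM with glutamine. Within the group with glutamine this sum was 307 to 345 CPM in replicates 1 and 2 and 1622 to 1639 CPM in replicates 3 and 4, where Gprc5c was the lower. The part of such cells in the Gprc5c values was not tested.

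Rasgrp1 was low in tolerant cells, and its values split by replicate pair. With AKG it had 5.77 and 4.80 CPM in replicates 1 and 2 and 1.89 and 1.42 CPM in replicates 3 and 4. Without glutamine these were 4.32 and 5.45 CPM, and 1.93 and 2.46 CPM. With glutamine they were 1.40 and 1.36 CPM, and 2.18 and 1.83 CPM. So both glutamine-free groups lay above the group with glutamine in replicates 1 and 2, and the groups lay together in replicates 3 and 4. The mast cell and basophil sum also split by pair: it was 4.20 and 0.996 CPM with AKG, 3.31 and 5.45 CPM without glutamine and 1.09 and 1.17 CPM with glutamine in replicates 1 and 2, and 0.425 to 0.663 CPM in replicates 3 and 4 of the 3 groups. The lymphocyte sum was 0.514 to 0.864 CPM with AKG, 0.837 to 1.61 CPM without glutamine and 0.387 to 0.810 CPM with glutamine, and its 1 tested gene, Lck, was called without glutamine against with glutamine (1.96, SE 0.36, adjusted p = 0.013). The part of such cells in the Rasgrp1 values was not tested.

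Over all libraries Rasgrp1 differed by 1.06 log2 units without glutamine against with glutamine (SE 0.47, adjusted p = 0.26) and 1.03 for AKG without glutamine against with glutamine (SE 0.47, adjusted p = 0.67). Within replicates 1 and 2 these were 1.82 (adjusted p = 0.00027) and 1.93 (adjusted p = 0.00048), and within replicates 3 and 4 they were 0.15 (adjusted p = 0.73) and -0.24 (adjusted p = 0.76). The difference between the pairs was itself tested, after seeing the data, and was 1.69 (SE 0.30, adjusted p = 0.023) and 2.21 (SE 0.30, adjusted p = 0.0083). AKG against no AKG gave -0.03 (SE 0.46, adjusted p = 0.99).

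Tbc1d16 and Snx29 had closer levels in the 3 tolerant groups. Tbc1d16 averaged 12.3 ± 1.1 CPM with AKG, 15.4 ± 2.1 CPM without glutamine and 14.7 ± 3.0 CPM with glutamine (SD, n = 4 each). AKG against no AKG gave -0.32 (SE 0.15, adjusted p = 0.40), and -0.31 (SE 0.08, adjusted p = 0.029) with the replicate block. Within replicates 1 and 2 it was -0.38 (adjusted p = 0.0096) and within replicates 3 and 4 -0.25 (adjusted p = 0.26). Within replicates 1 and 2 AKG without glutamine was also lower than with glutamine, with -0.40 on the log2 scale (adjusted p = 0.013; 11.6% of all genes called), against -0.06 (adjusted p = 0.91) within replicates 3 and 4.

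Snx29 averaged 29.8 ± 2.9 CPM with AKG, 30.6 ± 2.0 CPM without glutamine and 29.5 ± 5.1 CPM with glutamine. Its 3 log2 fold changes lay between -0.04 and 0.05 with an SE of 0.12 each (adjusted p from 0.90 to 1.0), and it was called under no alternative with all libraries or either replicate pair. These tolerant levels stood near the untreated level of the stimulation set, 23.1 ± 1.1 CPM, and far from the IL-4 level of 112 ± 2.7 CPM, with the limit that the sets were scaled separately.

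**Figure D4:**
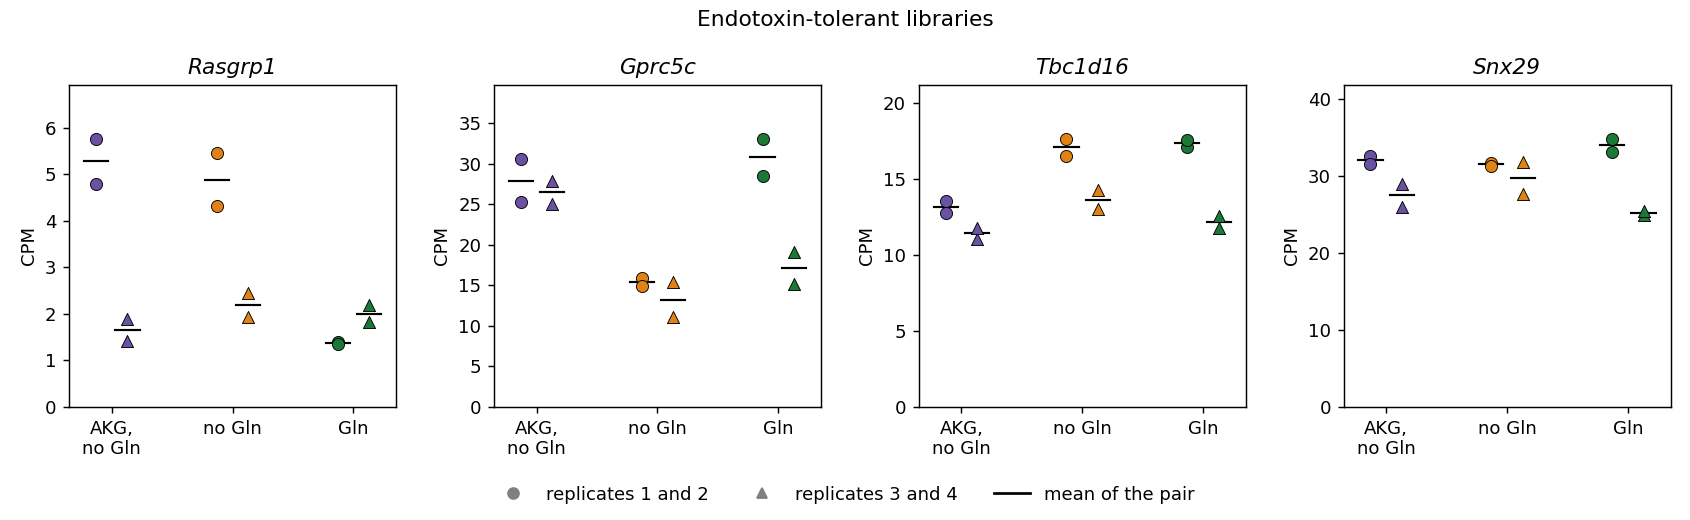
CPM (vertical axis, from 0) of Rasgrp1, Gprc5c, Tbc1d16 and Snx29 in the 12 tolerant libraries by group (AKG, α-ketoglutarate; Gln, glutamine), with circles for replicates 1 and 2, triangles for replicates 3 and 4 and bars for the mean of each pair. Rasgrp1 without glutamine is at 4.32 and 5.45 CPM in replicates 1 and 2 but 1.93 and 2.46 CPM in replicates 3 and 4, and Gprc5c without glutamine is at 15.9 CPM or below in all 4 libraries, under every AKG library.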

How the data were processed

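Total RNA of mouse bone marrow-derived macrophages was sequenced from stranded libraries, per the labels. The authors deposited raw counts per gene symbol in 2 tables, which the submitters' processing notes tie to STAR, HTSeq and the build mm10. Software versions, and whether the counting used strand, stand in none of the sources used here, so overlapping genes on opposite strands are less certain.

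The 6 genes, the 9 gene lists and the 9 marker lists were chosen with earlier results of these data known. Also named were up to 4 genes of each list with the smallest p for IL-4 against untreated (LPS response genes: LPS against untreated), every called neighbour among the 2 nearest protein-coding genes on each side, and the 3 genes of most similar pattern (prior count 2). Galnt3, Ccdc40, Dlx3, Retnla's counts and untested family members were added after their values were seen. Some genes of these lists are not reported here by name.

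The 2 tables were fitted separately, each over its 3 groups, by the quasi-likelihood F test of edgeR 4.0.16 after filterByExpr and TMM scaling (with limma 3.58.1 in R 4.3.3). A call is an adjusted p under 0.05 (Benjamini-Hochberg, over the 12506 and 12492 genes tested), and "rose" and "fell" mark these. All 6 genes passed the filter in the stimulation table, Scn3a and Msx3 through their IL-4 libraries alone, and 4 passed in the tolerant table. Log2 fold changes carry their standard error. Intervals and the limit of 3 counts cover counting error only. Exon lengths and positions are from GENCODE M21 (GRCm38, the mm10 assembly). The scripts were tested on simulated data. Figures used Python 3.11.15 and matplotlib 3.10.9.

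Replicates were not copies of each other. Same-number replicates deviated together in the tolerant set (12 correlations from 0.50 to 0.82), so the blocked fit is given beside results it changes, although libraries of another number from the same replicate pair correlated as well (0.47 to 0.84). In the stimulation set the 6 correlations ran from -0.66 to 0.50. With 2 libraries per group, replicates 1 and 2 give the same value by construction, so these are not 6 separate checks. Alternatives were RLE scaling, no filter, DESeq2 1.42.0, limma-voom, only the groups compared, the replicate block, replicates 1 and 2 against 3 and 4 as a factor and each library left out. Each pair alone, its interaction and a crossed block were added after seeing the data.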

Additional observations from a re-analysis of the deposited data

Results flagged for a closer look

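Rasgrp1 differed between replicate pairs in the tolerant set. The log2 fold change without glutamine against with glutamine was larger by 1.69 in replicates 1 and 2 than in replicates 3 and 4, and that of AKG without glutamine against with glutamine by 2.21. Both differences were tested as an interaction, a test added after seeing the data (adjusted p = 0.023 and 0.0083 over all genes, edgeR). The share of all genes called by it is not reported here. The 2 comparisons share their glutamine libraries. What separates the pairs is not in the labels.

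Snx29 had one low library among the 4 without glutamine, replicate 4, at 27.7 CPM against 31.3 to 31.8 CPM in the other 3. Its gap to the nearest was 0.887 of the range of the group, past the limit of 0.829 for 4 samples. Of 12 groups checked in this way chance would flag about 1 in 20.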

How the results depend on the processing

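In the stimulation set the number of genes called for IL-4 against untreated was 2513, and 3988 with a crossed replicate block (IL-4 replicate 1 with replicate 2 of the other groups), a pairing chosen after seeing the data. It ran from 876 to 2500 with 1 library left out, lowest without either IL-4 library (876 and 897). Rasgrp1, Tbc1d16, Snx29 and Gprc5c kept the sign of every fold change in this set under each alternative run. Since these genes were chosen on their levels in this set, nothing is read from that.

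In the tolerant set the counts moved most. Without glutamine against with glutamine gave 597 genes, and 1260 with DESeq2, 267 from the 2 groups alone, 2724 with the replicate block, 3117 with the replicate pair as a factor, 3559 in replicates 1 and 2 alone, 1656 in replicates 3 and 4 alone and 254 to 549 with 1 library left out. Of the 4 genes tested 0 were called, and 1 with DESeq2, the replicate block or the pair as a factor, 2 in replicates 1 and 2 alone and 0 to 1 with 1 library left out (1 without replicate 3 with glutamine). AKG against no AKG gave 192 genes, and 106 with no filter, 682 with DESeq2, 68 from the 2 groups alone, 1945 with the replicate block, 2347 with the pair as a factor, 2906 and 644 in the pairs alone and 28 to 171 with 1 library left out. Of the 4 genes 0 were called, and 1 with DESeq2, the 2 groups alone or replicates 3 and 4 alone, 2 with the replicate block, the pair as a factor or replicates 1 and 2 alone, and 0 to 1 with 1 library left out (1 without replicate 1 or 3 with glutamine). AKG without glutamine against with glutamine gave 0 genes (919 at an unadjusted p under 0.05), and 232 with DESeq2, 884 with the replicate block, 1155 with the pair as a factor, and 1432 and 782 in the pairs alone. Replicates 1 and 2 alone called 2 of the 4 genes there. The cause of these moves was not tested.

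Some differences that were not called over all libraries changed sign, most of them small. In replicates 1 and 2 alone, the log2 fold change without glutamine against with glutamine was -0.024 for Tbc1d16 and -0.11 for Snx29, that of AKG against no AKG was 0.11 for Rasgrp1 and 0.027 for Snx29, and that of AKG without glutamine against with glutamine was -0.086 for Snx29 and -0.14 for Gprc5c. In replicates 3 and 4 alone the last was -0.24 for Rasgrp1, against 1.03 over all libraries and 1.93 (called) in replicates 1 and 2 alone. With 1 library left out, Tbc1d16 ran from -0.029 to 0.15 and Snx29 from -0.016 to 0.14 without glutamine against with glutamine, Rasgrp1 from -0.39 to 0.26 and Snx29 from -0.091 to 0.020 for AKG against no AKG, and Snx29 from -0.058 to 0.10 for AKG without glutamine against with glutamine. Depth limits Scn3a and Msx3 in the tolerant set, and 2 libraries per group limit the stimulation set.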
